A study of Mus musculus with 18 samples.

Results

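Messenger RNA of NIH 3T3 cells, a mouse embryonic fibroblast line, was compared between 3 libraries with low levels of cell division genes and 3 libraries with high levels of them, out of 18 libraries in all. The 6 libraries form 1 run of the laboratory's serial numbers, 3 to 12, and they were selected on their own values: the division score, the mean log2(value + 1) of Ccnb1, Cdk1, Plk1, Top2a and Mki67, was low in libraries 3, 7 and 8 and high in libraries 4, 10 and 12. Every gene of these 6 libraries therefore counts as used for the choice, and each difference between the sets is given as a description with no test. The 12 libraries numbered 15 to 36 took no part in the choice and carry the only test.

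All cells derived from NIH 3T3 Tet-On 3G cells that were transduced with a retroviral pRetroX.Tight vector, and all were induced with 1 μg/ml doxycycline for 48 hr on fibronectin-coated polyacrylamide gels. Control cells expressed SS-GFP-KDEL, a green fluorescent protein kept in the endoplasmic reticulum (KDEL cells), and were further enriched by fluorescence sorting. The other cells expressed SS-HA-Sun1L-KDEL, the lumenal domain of Sun1, which acts as a dominant negative on the LINC complex that ties the nucleus to the cytoskeleton (SUN1L cells). Of the low-division libraries, library 3 came from SUN1L cells on 1 kPa, library 7 from SUN1L cells on 308 kPa and library 8 from KDEL cells on 308 kPa. Of the dividing libraries, library 4 came from KDEL cells on 1 kPa, library 10 from KDEL cells on 308 kPa with 10 μM blebbistatin, an inhibitor of myosin II, and library 12 from KDEL cells on 308 kPa with 25 μM Y27, a kinase inhibitor that lowers myosin activity. The sets thus cross construct, rigidity and inhibitor: both SUN1L libraries of the run were low, both inhibitor libraries were dividing, and a difference between the sets cannot be told apart from these. For this reason each library was also set beside the libraries 15 to 36 that share its construct, rigidity and inhibitor (2 each, and 1 for library 10, because the labels of library 34 contradict each other on the inhibitor). Library 34 enters the test below by its score alone: its source name gives an empty vector with Y27 on 308 kPa, another label gives blebbistatin, and its values stand in a column whose heading equals the source name but whose number differs from that of its title.

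Spacing of the low values gave an estimate of 12670000 to 19460000 read pairs per library, with 12670000 to 16450000 in the low-division and 17170000 to 19460000 in the dividing libraries; the part of depth in the differences was not tested. Values are signals per gene that the authors had scaled between libraries. No value lies under 1, and the 16021 of 22019 genes above 1 in at least 3 libraries were used. The summed scaled signal was 2.96e+07 in library 3, 2.98e+07 in library 7 and 3.08e+07 in library 8, against 3.37e+07 in library 4, 3.41e+07 in library 10 and 3.43e+07 in library 12. Sun1, checked against the construct labels, was at 38452 to 82617 in the 6 SUN1L libraries and at 2785 to 3799 in the other 12. Fibroblast markers summed to 255854 to 298967 in the low-division, 496753 to 558359 in the dividing and 334657 to 602294 in the other 12 libraries. Of 27 markers of other cell types, 20 passed the filter on low values; Epcam, Krt18, Krt19, Cd3e and Myod1 were at the lowest value in all 6 libraries. In the low-division and the dividing libraries, epithelial markers summed to 209 to 320.3 and 195 to 299.9, endothelial markers to 748 to 1167 and 609.9 to 3992, leukocyte markers to 198 to 267 and 242 to 347 and muscle markers to 344 to 412 and 202 to 244. Tek gave 3928 of the endothelial sum in library 12. Their part in the differences was not tested.

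Cells that leave the cycle switch off many genes through shared regulators. The DREAM complex of Rb-family proteins, E2F and MuvB holds down the promoters of replication and mitotic genes, and p53 strengthens this by raising the kinase inhibitor p21, the product of Cdkn1a. In a fibroblast the same state touches metabolism, since membrane growth needs sterols and fatty acids that SREBP factors supply, and a shortage of amino acids or a stressed endoplasmic reticulum turns on ATF4 and its targets.

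Because groups of genes differed together, promoter windows of RefSeq (build GRCm38.p6, 250 bases before to 50 after each start, 5′ to 3′ on the strand of the gene) were searched for short motifs on both strands. Mitotic genes are shown first, with matches to the cell cycle homology region TTTGAA and to the CCAAT box in capitals, a motif on the other strand appearing as its reverse complement:
Plk1 (chr7:122159405-122159484, plus strand): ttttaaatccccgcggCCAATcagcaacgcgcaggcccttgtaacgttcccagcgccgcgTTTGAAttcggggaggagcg
Cdk1 (chr10:69352863-69352987, minus strand): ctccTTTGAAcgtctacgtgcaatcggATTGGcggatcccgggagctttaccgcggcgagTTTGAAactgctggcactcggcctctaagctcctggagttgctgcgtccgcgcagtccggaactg
Ccnb2 (chr9:70421505-70421610, minus strand): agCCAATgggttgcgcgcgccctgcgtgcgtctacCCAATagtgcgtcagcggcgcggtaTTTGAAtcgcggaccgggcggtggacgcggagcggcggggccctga
TTTGAA occurred in 32 of 48 matched genes of the G2 and mitosis list (66.7%) and CCAAT in 33 (68.8%), while 14.6% and 42.5% of the 11738 tested genes with a window held them. Of all 32851 windows in the table, 17.9% held TTTGAA, 37.4% CCAAT, 1.07% TTTCCCGC, 1.24% TCACNCCAC and 3.97% TGATGNAA. The E2F motif TTTCCCGC was in 7 of 40 matched DNA replication genes (17.5%) and in 2.01% of the tested genes. These matches are letters in a window, not shown binding sites.

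Sterol genes are shown because nearly all genes of their list were lower in the low-division libraries, with CCAAT and the sterol response motif TCACNCCAC in capitals:
Idi1 (chr13:8885532-8885655, plus strand): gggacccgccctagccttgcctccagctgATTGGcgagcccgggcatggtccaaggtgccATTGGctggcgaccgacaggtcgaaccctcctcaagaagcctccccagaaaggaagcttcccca
Hmgcs1 (chr13:119690154-119690282, plus strand): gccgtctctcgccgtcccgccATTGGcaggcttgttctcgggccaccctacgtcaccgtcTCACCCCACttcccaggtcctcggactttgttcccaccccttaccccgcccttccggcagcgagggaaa
CCAAT was in 16 of 17 matched genes of cholesterol synthesis (94.1%), and TCACNCCAC in 1 of the 17 (5.88%), Hmgcs1, against 1.48% of the tested genes. Stress genes that were higher in the low-division libraries are shown with the amino acid response motif TGATGNAA in capitals, beside CCAAT:
Trib3 (chr2:152344011-152344106, minus strand): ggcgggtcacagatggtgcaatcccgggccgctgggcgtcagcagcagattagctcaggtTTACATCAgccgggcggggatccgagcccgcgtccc
Chac1 (chr2:119350992-119351116, plus strand): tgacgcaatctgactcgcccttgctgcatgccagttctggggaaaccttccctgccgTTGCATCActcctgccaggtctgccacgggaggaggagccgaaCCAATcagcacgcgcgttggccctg
TGATGNAA was in 7 of 23 matched genes of the amino acid response list (30.4%) and in 2.89% of the tested genes. CCAAT was in 19 of the same 23 genes (82.6%), so it was not particular to the lists that were lower. It was also in 25 of 40 matched DNA replication genes (62.5%), 11 of 20 SRF and MRTF targets (55%) and 8 of 16 p53 targets (50%).

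The division score was 9.24 in library 3, 9.61 in library 7 and 9.96 in library 8. Dividing libraries had 12.70 (library 4), 12.34 (library 10) and 12.46 (library 12), so that the sets lay 2.90 log2 units apart on average. In the other 12 libraries the score ran from 12.18 in library 15 to 13.03 in library 32, and none of them came near the low-division set. Of the markers that made the choice, Ccnb1, the cyclin of mitotic entry, was at 313, 475 and 597 in libraries 3, 7 and 8 and at 4173, 2831 and 3213 in libraries 4, 10 and 12.

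**Figure D1:**
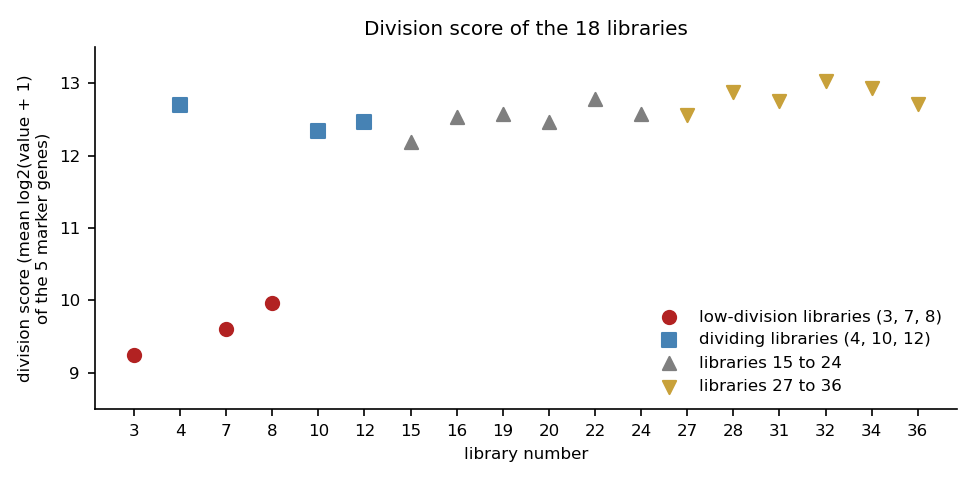
Division score (mean log2(value + 1) of Ccnb1, Cdk1, Plk1, Top2a and Mki67) on the y axis for each of the 18 libraries by library number on the x axis. Libraries 3, 7 and 8 lie between 9.24 and 9.96, and the other 15 between 12.18 and 13.03.

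Between the sets, 762 of 16021 genes (4.76%) were at least 2-fold higher in the low-division libraries with no overlap of the 3 and 3 values, and 944 (5.89%) were at least 2-fold lower. Outside the cell cycle lists and the cell cycle, DNA replication, DNA repair and chromosome terms of the table, 730 genes remained on the higher and 682 on the lower side, out of 14663 tested genes outside them. Below, outside the cell cycle means outside these lists and terms only, which need not hold every gene that varies with the cycle. Whatever the fold, 1410 genes (8.8%) were above and 2065 (12.9%) below all 15 other libraries in each low-division library. The list counts below stand beside these shares of all genes. Against libraries of their own labels, 630 of the 762 higher genes were higher and 865 of the 944 lower genes were lower in each of libraries 3, 7 and 8. The median difference of the higher genes from their own labels was 1.09 in the low-division libraries and -0.19 in the dividing ones, and that of the lower genes -1.38 and -0.033. The 762 and 944 genes were picked on these same libraries, so part of the agreement with their own labels comes from the choice.

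The genes of division itself were lower as a body. All 63 of 63 genes of G2 and mitosis were at least 2-fold lower, with a median log2 difference of -2.63 and of -2.74, -2.75 and -2.51 for libraries 3, 7 and 8 against their own labels. Birc5, which encodes survivin of the chromosomal passenger complex, was at 156, 183 and 233 in libraries 3, 7 and 8 against 2143, 1554 and 1778 in libraries 4, 10 and 12, and Mybl2, a factor that activates mitotic genes, was at 171, 211 and 230.1 against 2332, 1690 and 1716. In DNA replication and S phase, 43 of 50 genes were lower by that measure (median -1.78), among them Uhrf1, which maintains DNA methylation (-3.09), and Cdc6, which loads the replicative helicase (-2.78). Genes of homologous recombination and Fanconi repair followed with 17 of 20 (median -2.26), and nucleotide synthesis with 7 of 20 (median -0.64), led by Tk1 (-2.73) and Rrm2 (-2.65). Replication-dependent histones, whose mRNAs mostly lack the poly(A) tail that these libraries selected, had a median of -0.048.

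Brakes of the cycle did not share a direction. Cdkn1a, the p21 inhibitor, was at 26261, 22033 and 18510 in libraries 3, 7 and 8 against 10392, 10945 and 10899 in libraries 4, 10 and 12 (log2 difference 1.04), but library 15, of SUN1L cells on 1 kPa, had 19640, above library 8. Other inhibitors were lower, with log2 differences of -1.79 for Cdkn2c and -1.89 for Cdkn2d, as was Rbl1, the Rb-family protein p107 (-1.96). Of 22 tested brakes, 1 was at least 2-fold higher (4.55%) and 4 were lower (18.2%), beside 4.76% and 5.89% of all genes, with a median of -0.13. Among G1 cyclins and their kinases, 5 of 13 were lower, including E2f1 (-1.24) and E2f2 (-2.31), activators of S phase genes. Ccnd1, the cyclin that answers to growth factors, differed by -0.42 and was below all 15 other libraries, while Ccnd2 differed by -0.19 with overlapping values.

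The low-division libraries are named here by their score and not as arrested cells, because genes named for growth arrest in fibroblasts were mostly not higher. Their median over 20 genes was -0.42, and -0.11, -0.044 and -0.12 for libraries 3, 7 and 8 against their own labels. Of the 20, 1 was at least 2-fold higher (5%, beside 4.76% of all genes) and 3 were lower (15%, beside 5.89%). The higher one was Gadd45a, a stress sensor that restrains Cdk1, at 2910, 2843 and 3359 against 707, 1121 and 818, with 593 to 1152 in the other 12 libraries. Gas2l3, a linker of actin and microtubules in dividing cells, was lower (-2.61), as were Cd9 (-1.50) and Gadd45g (-1.43). Axl, the receptor of Gas6, differed by -0.75 and lay below all 15 other libraries. Among FOXO targets, 2 of 19 were at least 2-fold higher (10.5%, beside 4.76% of all genes). Txnip, a brake on glucose uptake, was at 954, 1103 and 1233 against 280.3, 257 and 546. Klf15 was at 14.0, 18.0 and 23.8 against 1.00, 1.99 and 1.00, close to the lowest value of the table.

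Part of the p53 targets were higher, by small amounts. Of 23 tested, 11 lay above all 15 other libraries in each of libraries 3, 7 and 8, where 8.8% of all genes did, and 1 was at least 2-fold higher. The list median was 0.19 between the sets and 0.46, 0.49 and 0.65 for libraries 3, 7 and 8 against their own labels, beside -0.015, -0.014 and -0.0033 over all genes. The dividing libraries 4, 10 and 12 also lay above libraries of their own labels in this list, with medians of 0.20, 0.19 and 0.070. Trp53inp1, which promotes p53-dependent arrest and death, was at 7901, 9163 and 8319 in libraries 3, 7 and 8 against 3190, 3553 and 3856 in libraries 4, 10 and 12 and 961 to 5643 in the other 12. Mdm2, the ligase that degrades p53, was at 16896, 18019 and 18560 against 9758, 9149 and 8467, and Sesn2, a sestrin that limits mTORC1, at 4927, 4164 and 5296 against 2431, 2623 and 2658. In both genes the low-division libraries lay above all 15 others. Bbc3, which encodes the death activator PUMA, differed by 0.84, while Plk2 differed by -0.007 with overlapping values.

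Cholesterol synthesis had the lowest median outside the cell cycle and repair lists. Of 25 genes of the mevalonate and sterol pathway and its regulators, 24 were at least 2-fold lower and also below all 15 other libraries. Idi1, isopentenyl diphosphate isomerase, whose promoter is shown above, was at 689.6, 799 and 830.2 in libraries 3, 7 and 8 against 8032, 9244 and 11292 in libraries 4, 10 and 12. Fdps, which makes farnesyl diphosphate, was at 1329, 1336 and 1552 against 8143, 9794 and 9981, and Acat2, which makes acetoacetyl-CoA, was at 1200, 1407 and 1392 against 8289, 10019 and 11766. The 3 low-division libraries were close to each other in these genes, and the other 12 libraries reached down to 5304 for Idi1, 6636 for Fdps and 6363 for Acat2. Insig1, which holds SREBP back in the endoplasmic reticulum and is itself an SREBP target, was also lower (-2.77). The list median was -2.19 between the sets and -1.58, -1.90 and -2.17 for libraries 3, 7 and 8 against their own labels, which differ in construct and rigidity. For the dividing libraries 4, 10 and 12 it lay between -0.12 and 0.056 against theirs.

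**Figure D2:**
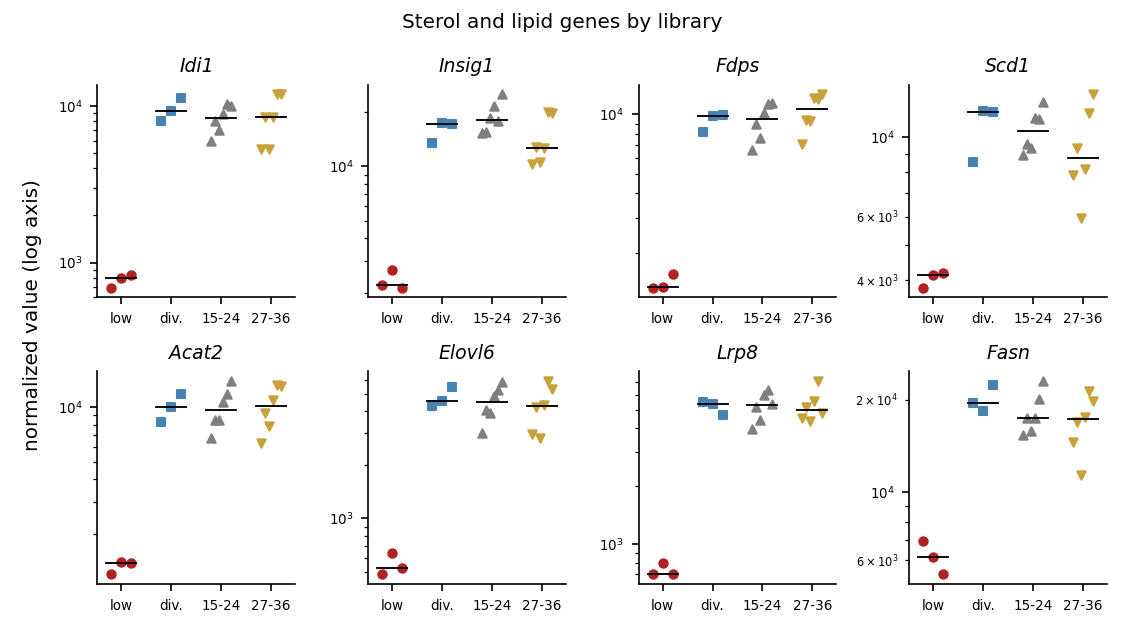
Normalized value on a log axis of 8 sterol, fatty acid and lipoprotein receptor genes in the low-division libraries (3, 7 and 8, low), the dividing libraries (4, 10 and 12, div.), libraries 15 to 24 and libraries 27 to 36; each point is a library and each bar a median. In every panel the 3 low-division libraries lie below the other 15.

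Of 15 tested adipogenic genes (median 0.019), 5 were at least 2-fold lower, the fatty acid carrier Fabp4 and the lipid synthesis genes Fasn, Scd1, Scd2 and Acaca. Elovl6, which elongates saturated fatty acids, was at 486, 639 and 530.4 against 4286, 4541 and 5467, Fasn, fatty acid synthase, at 6956, 6154 and 5402 against 19500, 18437 and 22348, and the desaturase Scd1 at 3814, 4141 and 4194 against 8523, 11812 and 11772. Each lay below all 15 other libraries. Lrp8, a receptor for apolipoprotein E and reelin, was lower with a log2 difference of -2.83, and Crabp1, which binds retinoic acid, with -2.74.

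Amino acid and stress genes included some of the largest increases, but only part of the list was higher. Trib3, a pseudokinase induced by ATF4, was at 3475, 2505 and 3448 in libraries 3, 7 and 8 against 663, 1107 and 655 in libraries 4, 10 and 12, and Ddit3, which encodes CHOP, was at 2867, 2755 and 2824 against 977, 1174 and 922. Aldh1l2 of mitochondrial folate metabolism differed by 1.10 and lay above all 15 other libraries, as did Chac1 (0.98), chosen after its values were seen, whose promoter is shown above. Of the 4 genes at least 2-fold higher, Vldlr was near the lowest value of the table (4.60, 5.31 and 2.16 against 1.00, 1.00 and 1.00). The chaperones of the endoplasmic reticulum did not share this: Hspa5 differed by -0.11 and Hsp90b1 by -0.35, and the list median over 26 genes was 0.21. Among the largest increases outside any list were Gtpbp2 (1.84), which helps to rescue stalled ribosomes, Slc6a9 (1.51), a glycine transporter that overlaps B4galt2 on the other strand, and Nupr1 (1.65), a small stress protein. Gtpbp2 was at 4150, 3558 and 3437 against 911, 1108 and 1105, and 754 to 1372 in the other 12 libraries.

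Secreted and surface proteins were spread over both directions. Igfbp4, which binds insulin-like growth factors, was at 1717, 1193 and 1289 in libraries 3, 7 and 8 against 241, 222 and 275 in libraries 4, 10 and 12, with 228 to 903 in the other 12. Vegfa, the angiogenic growth factor, was at 5327, 4386 and 3231 against 1931, 2051 and 1527, and libraries 15 and 19 with 4201 and 3247 were above library 8. Libraries 15 and 19 came from SUN1L cells, as did libraries 3 and 7, and library 8 from KDEL cells. Of 24 genes of the senescence and secretory list, 3 were at least 2-fold higher (12.5%) and 5 lower (20.8%), with a median of -0.19. Cdsn, corneodesmosin of the skin barrier, differed most of the genes named by the rule: 12222, 8400 and 11598 against 353, 551 and 229, with 248 to 2638 in the other 12. Further increases were those of the matrix metalloprotease Mmp11 (1.76), the teneurin Tenm4 (2.25), the T cell costimulator Cd80 (1.55) and the ferritin receptor Scara5 (1.99), whose low-division libraries overlapped with the other 12.

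**Figure D3:**
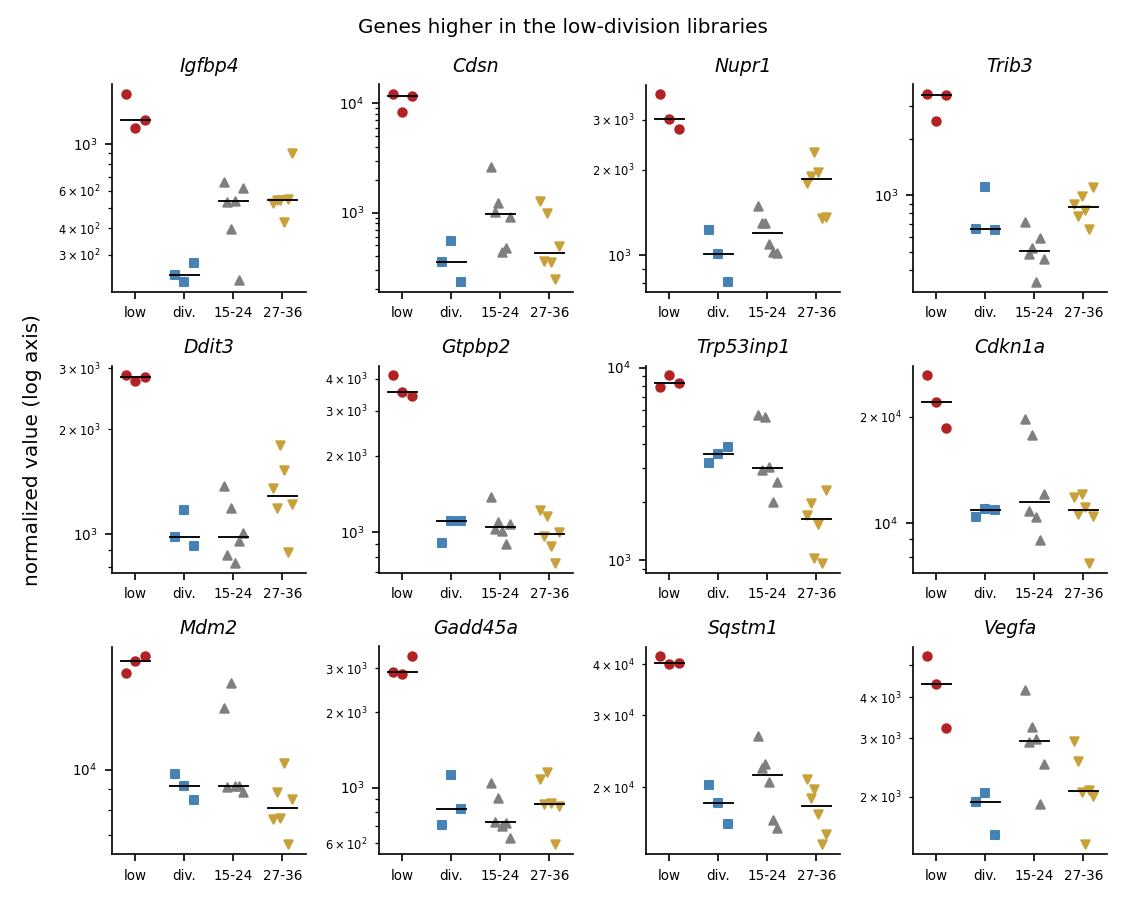
Normalized value on a log axis of 12 genes that were higher in the low-division libraries, drawn per library for the low-division libraries (low), the dividing libraries (div.), libraries 15 to 24 and libraries 27 to 36, with bars at the medians. Cdkn1a and Vegfa overlap with libraries 15 to 24, while the other 10 genes of the low-division libraries lie above all 15 other libraries.

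Lysosome and autophagy genes stayed near 0 as a list (median -0.10 over 36 genes). At least 2-fold higher were 2 of the 36 (5.56%), near the 4.76% of all genes. Sqstm1, the autophagy receptor p62, was at 41912, 39935 and 40172 against 20247, 18286 and 16227, and Atg9b, which delivers membrane to autophagosomes and overlaps Nos3 on the other strand, at 3090, 2166 and 2097 against 681, 562 and 428. Glycolysis and hypoxia genes were mostly lower: 8 of 26 by at least 2-fold and 17 below all 15 other libraries, beside 5.89% and 12.9% of all genes. The list median was -0.72, and -0.71, -0.78 and -0.77 for libraries 3, 7 and 8 against their own labels. Pdk1, which keeps pyruvate from mitochondria, differed by -1.90, and the glycolytic enzyme Tpi1 by -1.32.

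Of 24 targets of SRF and its actin-sensing partner MRTF, 9 were at least 2-fold lower (beside 5.89% of all genes) and 1 was higher. Below all 15 other libraries were 14 of the 24, beside 12.9% of all genes. Acta2, smooth muscle actin, was at 5400, 6388 and 8635 in libraries 3, 7 and 8 against 30540, 23873 and 19540 in libraries 4, 10 and 12, and Tpm4, a tropomyosin, at 4609, 5059 and 6544 against 16180, 15420 and 13570. Actb, often taken as a reference gene, was at 77986, 65978 and 73638 against 182125, 171318 and 153937, and the filament protein Vim differed by -1.46. The list median was -0.79, and -0.62, -0.61 and -0.81 for libraries 3, 7 and 8 against their own labels. Of 17 genes of the nuclear lamina and envelope, 1 was at least 2-fold higher and 4 were lower, with a median of -0.33 and of -0.32, -0.42 and -0.24 for libraries 3, 7 and 8 against their own labels. Lmnb1, lamin B1, was at 471, 471 and 576 against 3653, 2942 and 3237, and Tmpo and Lbr, which anchor chromatin at the envelope, differed by -1.49 and -1.48. Syne1, which encodes a nesprin, a kind of protein that SUN proteins bind, was higher (6604, 7130 and 5283 against 2766, 2811 and 2344). This held in the KDEL library 8 and in the SUN1L libraries 3 and 7 alike, and Lmna differed by -0.65.

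Matrix genes looked lower between the sets, but less so against their own labels. Collagens had a median of -0.76 between the sets, with 7 of 22 at least 2-fold lower and 1 higher, which lay above all 15 other libraries. Against libraries of the same construct, rigidity and inhibitor the median was -0.22, -0.40 and -0.072 for libraries 3, 7 and 8. Col1a1 was at 41182, 32648 and 49147 against 96743, 100472 and 100927, and library 7 lay below the 38850 to 118122 of the other 12 libraries. Matrix glycoproteins and proteoglycans had medians of -0.51 and -0.11, 0.11 and -0.27, and Thbs1, thrombospondin 1, was -1.25 between the sets but 0.54 on average against its own labels. Immediate-early genes had -0.79 and 0.44, 0.33 and -0.66, so that their direction differed between the low-division libraries. For the dividing libraries 4, 10 and 12 the immediate-early median was 0.23, 0.49 and 0.47 against their own labels. The dividing set holds both inhibitor libraries and the low set none, so the inhibitors cannot be told apart from division in the values between the sets.

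**Figure D4:**
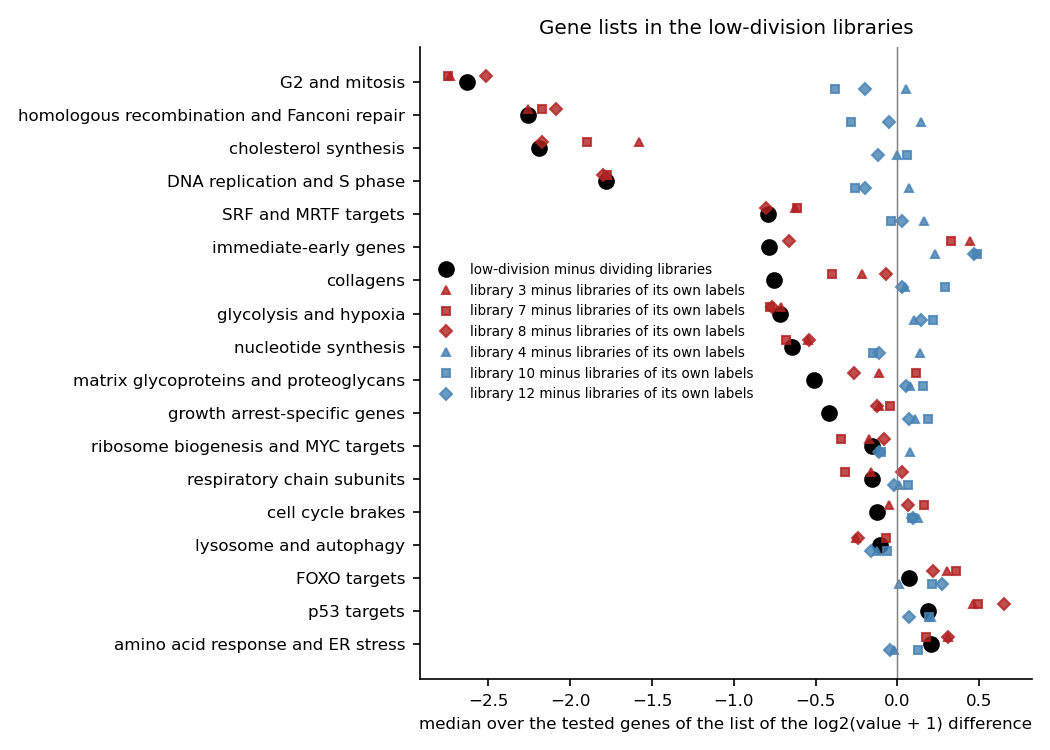
Median over the tested genes of 18 lists of the log2(value + 1) difference on the x axis, one row per list: low-division minus dividing libraries (black circles), and each low-division (red) and dividing (blue) library minus the libraries of its own labels. Division, repair and cholesterol lists lie between -2.75 and -1.58 in all red marks, while collagens and immediate-early genes depend on the reference.

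Whether these patterns follow division in libraries that took no part in the choice was tested in the 12 libraries numbered 15 to 36, by the slope of each gene on the division score, fitted with limma across all genes. Slopes are given as the change of log2(value + 1) for each unit by which the score was lower. In these libraries the score spanned 0.848 units only, against the 2.90 between the sets. At a Benjamini-Hochberg adjusted p under 0.05, 543 of 16021 genes (3.39%) were higher and 992 (6.19%) lower at a low score, the markers left out. Libraries 15 to 24 had a mean score of 12.52 and libraries 27 to 36 of 12.81, so part of the score is the difference between the runs. Libraries 15 and 27, of SUN1L cells on 1 kPa, had the lowest scores of their runs (12.18 and 12.56). The SUN1L libraries 19 and 31 on 308 kPa had 12.57 and 12.76. Construct and score are thus partly mixed in the test as well. The count of genes called was 42 with the run as a block and 0 in each run alone (1394 and 1135 genes at an unadjusted p under 0.05). Without libraries 15 and 32, the farthest from the median score, it was also 0 (2749 unadjusted), and it was 366 without library 32, 575 without library 15, 610 without library 34, 815 without library 20 and 935 without library 16.

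Most genes of the low-division description leaned the same way. Of the 762 higher genes, 593 (77.8%) had a slope toward higher values at a low score, where 50.8% of all genes did; 612 of them did so within libraries 15 to 24 and 542 within libraries 27 to 36. Of the 944 lower genes, 82.1% had a slope toward lower values, with 771 and 786 within the runs, where 49.2% of all genes did in the pooled fit. Outside the cell cycle the shares were 77.4% of 730 and 76% of 682. Called by the test were 53 of the 762 and 261 of the 944 in the same direction, and 1 and 6 in the other. With the run as a block these calls fell to 1 of the 762 and 38 of the 944, or 7 of the 682 outside the cell cycle, and within each run alone to 0. Unlike the counts over all genes above, the 944 include the 5 markers that make up the score. They account for 5 of the 261 calls and 3 of the 38, and are no result. With the condition of each library as a term, in the 11 libraries with a group, the shares of the 762 and the 944 were 62.3% and 67.6%. That fit compares libraries of the same condition between the runs and cannot be told apart from them.

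For the G2 and mitosis list the slope and the low-division difference had about the same size. Its median slope was -0.92 (-0.78 in libraries 15 to 24 and -0.90 in libraries 27 to 36), while the low-division difference divided by the 2.90 units of score was -0.91; 50 of 63 genes were called lower at a low score, and 14 with the run as a block. Since the score is made of genes of this kind, this describes how the score was built. DNA replication genes had -0.84 (-0.60 in libraries 15 to 24 and -0.74 in libraries 27 to 36) beside -0.62, and 38 of 50 were called, but only 1 with the run as a block. Lmnb1 had a slope of -1.53 ± 0.22 (SE; limma adjusted p = 0.00353; -1.11 and -1.21 within the runs), and Tmpo of -0.80 ± 0.17 (adjusted p = 0.0163; -0.92 and -1.03).

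The direction of cholesterol synthesis depended on the fit. Its median slope was -0.50 (-0.77 in libraries 15 to 24 and -0.99 in libraries 27 to 36), beside -0.76 for the low-division difference per unit of score, and 21 of 25 slopes were toward lower values. Within libraries 15 to 24 all 25 slopes were toward lower values, and within libraries 27 to 36 it was 24. With the run as a block the median was -0.82, and all 25 slopes were toward lower values. With the condition of each library as a term the median turned to 0.17, with 16 of 25 slopes toward higher values and 1 called higher. That fit compares libraries of the same condition between the runs, so its slopes cannot be told apart from the runs. In the pooled fit 1 gene of the list, Fdft1, named after its values were seen, was called lower at a low score (adjusted p = 0.0358), and 0 with the run as a block; it overlaps Ctsb on the other strand. Idi1 had -0.75 ± 0.45 (adjusted p = 0.297; -1.24 and -1.56 within the runs, 0.17 with the condition as a term) and Fdps -0.94 ± 0.29 (adjusted p = 0.0565; -1.22 and -1.29 within the runs).

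Of the genes that were higher in the low-division libraries, some followed the score and some did not. Trp53inp1 had a slope of 2.64 ± 0.62 (adjusted p = 0.0232; 2.26 and 0.84 within the runs), Cdsn of 3.48 ± 0.70 (adjusted p = 0.0123; 3.53 and 4.56) and Vegfa of 1.59 ± 0.24 (adjusted p = 0.00431; 1.82 and 1.53). Gtpbp2 (0.78 ± 0.19; adjusted p = 0.0256; 0.95 and 1.23), Sqstm1 (0.84 ± 0.23; adjusted p = 0.0408; 1.16 and 0.62) and Syne1 (0.97 ± 0.27; adjusted p = 0.042; 0.23 and 0.80) were called higher at a low score too. Of the 12 fits with 1 library left out, Sqstm1 was called in 4, Syne1 in 3 and Gtpbp2 and Trp53inp1 in 9 each, and with the run as a block none of these 6 genes was. The part of the construct in these 6 slopes cannot be told from the pooled fit, since construct and score are partly mixed in it. Cdkn1a had 1.09 ± 0.34 (adjusted p = 0.0598; 1.63 and 0.63) and Mdm2 0.73 ± 0.38 (adjusted p = 0.236; 0.88 and -0.50), which did not pass. Trib3 (-0.79 ± 0.57; adjusted p = 0.397) and Ddit3 (-0.17 ± 0.43; adjusted p = 0.835) had slopes of the other sign that did not pass, although within each run both slopes were above 0. Igfbp4 had 0.54 ± 0.56 (adjusted p = 0.578; 2.25 and 0.92).

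**Figure D5:**
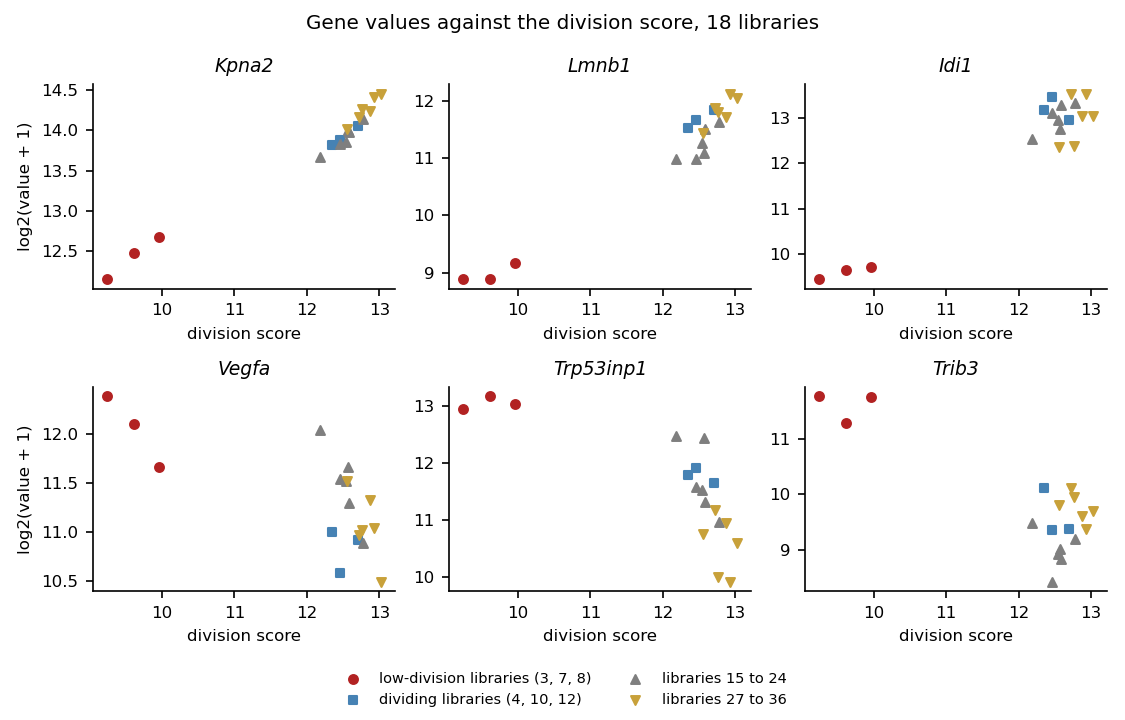
Log2(value + 1) of 6 genes on the y axes against the division score on the x axes in the 18 libraries, with a mark per library. The low-division libraries lie below the other 15 in Kpna2, Lmnb1 and Idi1 and above them in Trib3 and Trp53inp1, while Vegfa overlaps with libraries 15 to 24.

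Some gene groups followed the score in the 12 libraries but hardly differed in the low-division ones. Ribosome biogenesis and MYC targets had a median slope of -0.64 (-0.31 in libraries 15 to 24 and -0.48 in libraries 27 to 36), with 13 of 32 called lower at a low score and 0 in the other direction. In the low-division libraries none of them was 2-fold lower, and the median difference was -0.16, or -0.054 per unit of score. Respiratory chain subunits were alike, with a median slope of -0.54 (-0.26 in libraries 15 to 24 and -0.29 in libraries 27 to 36), 10 of 27 called and a low-division difference of -0.16. Over all genes, 6.19% were called lower at a low score. Dkc1, which modifies ribosomal RNA, had a slope of -1.10 ± 0.14 (adjusted p = 0.00213; -0.98 and -0.90 within the runs) and a low-division difference of -0.56. With the run as a block 0 genes of either list were called by limma. Some lists that did differ in the low-division libraries had few calls in the 12. SRF and MRTF targets had a median slope of 0.021 (-0.26 and -0.61 within the runs), with 1 of 24 called lower. Glycolysis and hypoxia genes had -0.38 (0.0065 and -0.40), with 1 of 26 called in each direction. For p53 targets it was 0.37 (0.099 and 0.021), with 1 of 23 called higher. With the run as a block these medians were -0.43, -0.16 and 0.021, with 0 genes called.

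Outside the cell cycle lists and terms, the 10 genes with the smallest adjusted p on the lower side were Kpna2, Dkc1, Stmn1, Ddx1, Lsm6, Mrpl42, Arhgap19, Nup93, Uqcrc2 and Rpp30. Whether these genes vary with the cycle themselves, as the score markers do, was not tested. Kpna2, an importin of nuclear transport, had a slope of -0.99 ± 0.12 (adjusted p = 0.00152; -0.81 and -0.90 within the runs) and was at 4542 to 6570 in the low-division against 17012, 14502 and 15134 in the dividing libraries. Stmn1, which takes microtubules apart, had -1.03 ± 0.14 (adjusted p = 0.00259; -1.05 and -1.03) and a low-division difference of -2.11. The 10 on the higher side included Fxyd3, Kank1, Lgi4, Hpn, Vegfa, Gm28035, Plin3, Ltbp2 and BC022687, of which Fxyd3 and Lgi4 overlap each other on opposite strands and Gm28035 overlaps Lrrc8a on the same strand. The low-division libraries went against the slope in 2 of them. Kank1, which limits actin polymerization at the cortex, had 1.45 ± 0.20 (adjusted p = 0.00266; 1.45 and 0.85), yet was at 347, 313 and 339.8 in libraries 3, 7 and 8, below the 549, 512 and 549 of libraries 4, 10 and 12 and the 427 to 1025 of the other 12. Plin3, a coat protein of lipid droplets, had 0.77 ± 0.12 (adjusted p = 0.00473; 0.85 and 1.03) and was at 2142, 1894 and 1728 against 2327, 2363 and 2513, also below all other libraries. With the run as a block Kpna2, Stmn1 and Plin3 were still called (adjusted p = 0.037, 0.0422 and 0.0305), while Lmnb1, Tmpo, Dkc1 and Kank1 were not.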

How the data were processed

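Polyadenylated RNA was measured in 18 libraries of NIH 3T3 cells. The authors aligned paired-end reads with TopHat 2.0, filtered them in AvadisNGS by base quality, alignment score, mapping quality, mates and duplicates, and deposited 1 normalized signal per gene and library, scaled by the trimmed mean of M-values, on a linear scale that starts at 1. The mm9 build is named in the methods, while the gene positions of the table lie on GRCm38. Strand use in counting is not given in the sources used here, so overlapping genes cannot be told apart. All value columns were used. The values are not whole reads: 41.8% to 44.7% of low values were whole at a tolerance of 0.02 read pairs, so no count test was used.

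Libraries were grouped by the labels; library 34, whose labels contradict each other, has no group and enters only the score fit, by a heading that matches 1 of its labels. Values were analysed as log2(value + 1), so fold changes of low genes are understated, in Python 3.11.15, and slopes were fitted with limma 3.58.1 in R 4.3.3 (trended prior, two-sided) for genes above 1 in at least 3 libraries. In simulated data over 16021 genes in the 12 libraries, 20% of 100 genes with a slope of 1 and 64% of 100 with a slope of 2 were recovered, with 4 false calls, and 0 calls without an effect. The methods name biological replicates for each condition, but the labels number none and how cultures were kept apart is not given; p-values measure the spread between these libraries only, and runs are serial numbers, not stated days.

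The libraries, the 36 gene lists and the tests were chosen with earlier results of these data known. Named genes are the score markers, Sun1, of each list up to 4 with the largest difference without overlap and 2 with the highest signal, the 15 largest increases and decreases outside the cell cycle with a mean above 590.3, the median of tested genes, whose 3 low-division libraries all kept that side against own labels, and the 10 smallest adjusted p-values in each direction; others are marked, and a few genes that the rule names are not reported here. Promoters came from RefSeq GRCm38.p6. Alternatives were the pseudocount, filters, quantile normalization, other references and fits, and leaving out libraries.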

Additional observations from a re-analysis of the deposited data

How the results depend on the processing

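The count of 1706 genes at least 2-fold apart between the sets stayed within 1.5 times under every alternative tried: 1172 with a pseudocount of 8 (381 higher and 791 lower), 1813 with a pseudocount of 0.1, 1543 after quantile normalization, 1314 at a mean of at least 10, 1586 against libraries of the same labels (of which 383 higher and 652 lower genes were shared with the 762 and 944), and 1821 to 2126 with each library left out in turn. Quantile normalization moved the median of all genes from -0.0094 to 0.0415.

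The 1535 genes that followed the score became 847 after quantile normalization, 983 without a filter, 42 with runs as a replicate block, 610 without the library whose labels contradict each other, 0 without the 2 libraries farthest from the median score (smallest adjusted p = 0.0649), 2433 with a score of the G2 and mitosis list, 366 to 1655 with each library left out, and 0 in libraries 15 to 24 or in libraries 27 to 36 alone, both chosen after seeing the data. The cause was not tested. The labels number no replicates, so the block stands for runs of serial numbers and is no pairing by design.

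Of 36 list medians, 19 moved by more than the spread of the 3 low-division libraries with quantile normalization and 21 against own labels. Among the 9 lists fixed as main results, which kept their sign, those that moved with quantile normalization were DNA replication (-1.65), p53 targets (0.39), SRF and MRTF targets (-0.61), glycolysis and hypoxia (-0.61) and the amino acid response (0.38). Against own labels they were growth arrest-specific genes (-0.0302), p53 targets (0.43), collagens (-0.26), SRF and MRTF targets (-0.67) and cholesterol synthesis (-1.94). With each library left out in turn they ran from -1.85 to -1.70 for DNA replication, from 0.15 (without library 8) to 0.30 for p53 targets, from -0.89 to -0.76 for SRF and MRTF targets and from 0.044 (without library 8) to 0.24 for the amino acid response, which without library 4 had 0.099. Against own labels the differences of Adamts5 (0.63), Thbs1 (0.54) and Cxcl12 (0.59) turned to higher. A gene near the value of 1 read pair, 1.70 to 2.49 signal units, cannot be resolved at this depth.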

Other observations

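Interferon-stimulated genes, which fibroblasts raise on sensing viral or cytosolic nucleic acid, were split in the low-division libraries. Of 27 tested, 2 were at least 2-fold higher than in the dividing libraries and 4 lower (median -0.25), or 7.41% and 14.8%. Ifit2 was at 920.2, 1110 and 937 against 2111, 2520 and 2603, while Usp18, an inhibitor of interferon signalling, was at 27.5, 36.4 and 19.8 against 9.47, 4.41 and 4.39. MHC class I genes had a median of -0.11, and B2m, their shared light chain, differed by -0.37.

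Primary cilium genes, whose organelle is built when cells stop dividing, had a median of 0.054 over 35 genes. None was 2-fold apart, and Bbs4, of the BBSome that carries ciliary cargo, differed by 0.92 and lay above all 15 other libraries (214, 207 and 214 against 116, 101 and 119). Bcl2l11, which encodes the death activator BIM, was higher (1349, 1220 and 1060 against 605, 546 and 509), while Casp8, a caspase of death receptor signalling, differed by -0.49.

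Library 34, which the labels put in no single group, had a division score of 12.93. There Idi1 was at 11929, Trib3 at 663 and Trp53inp1 at 961.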
